A study of Mus musculus with 2 samples.

Results

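The pericytes of the mouse molar were examined in 2 single-cell RNA libraries of mandibular first molars with the tissue around them, taken from C57BL/6J mice at PN15.5 (postnatal day). Mice of the Lipo-Clo group had received liposomes filled with clodronate, which macrophages engulf and which kills them, at 40 µg/g by intraperitoneal injection in 4 doses from PN3.5 to PN12.5. Mice of the Lipo-PBS group had received vehicle liposomes at the same ages. Each group had 1 library, and how many mice went into a library is not given in the sources used here, so the comparison is between 2 libraries, with no replicate and no test. All intervals are exact 95% intervals that cover counting error only.

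Pericytes were chosen by a rule on their own transcripts. A cell was taken when it had at least 200 genes, at most 20% mitochondrial UMIs (unique molecular identifiers, 1 for each captured transcript), 4 or more UMIs summed over Rgs5, Notch3, Kcnj8, Abcc9 and Higd1b, fewer than 2 UMIs of the smooth muscle gene Myh11, fewer than 4 UMIs summed over Cdh5, Pecam1, Egfl7, Emcn, Kdr and Flt1 of endothelium, and at most 2% of its UMIs on the collagen gene Col1a1. The rule found 925 pericytes among 17780 filtered cells, of 19015 deposited. Lipo-Clo gave 375 of its 8886 filtered cells and Lipo-PBS 550 of its 8894. The pericytes held 889811 UMIs in Lipo-Clo and 1470313 in Lipo-PBS, with medians of 1603 and 2112.5 UMIs per cell and of 960 and 1123.5 genes. The libraries shared 30 cell barcodes, and no barcode was a pericyte in both.

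Pericytes are the mural cells of capillaries. They lie within the basement membrane that they share with the endothelium, are recruited by endothelial PDGF-B through the receptor Pdgfrb, depend on Notch3 signalling for their maturation, and set capillary tone through potassium channels, calcium and cyclic nucleotides. In the dental pulp and the periodontal tissues, perivascular cells are also known as one of the niches of mesenchymal stem cells.

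The chosen transcripts are first given as levels. Rgs5, a brake on G protein signalling and the most abundant of the 5 chosen transcripts, stood at 7052 CPM in Lipo-Clo (interval 6879 to 7229) and at 6140 CPM in Lipo-PBS (interval 6014 to 6268), where CPM are a gene's UMIs scaled to a library total of 1000000 over the pericytes. Notch3, the receptor, stood at 695.7 and 514.2 CPM. Kcnj8 and Abcc9 encode the pore and the regulatory subunit of one ATP-sensitive potassium channel and are neighbouring genes on chromosome 6. Kcnj8 stood at 261.9 and 172.8 CPM, and Abcc9 at 596.8 and 476.1. Higd1b, a mitochondrial protein gene much used as a pericyte marker, stood at 565.3 and 435.3 CPM. At least 3 of the 5 transcripts were present in 265 of 375 Lipo-Clo pericytes (70.7%) and in 354 of 550 Lipo-PBS pericytes (64.4%). These levels were set by the choice of cells and are given as a description. At the lower edge, there were 13 Lipo-Clo and 34 Lipo-PBS cells with exactly 4 marker UMIs, and their Pdgfrb level, which the rule did not use, was 635.6 and 174.1 CPM. Of these cells 4 and 29 carried transcripts of another lineage, as defined below, and Dcn of fibroblasts was at 149.5 and 1526 CPM. Cells just outside, with 3 marker UMIs and the other limits met, numbered 26 and 64, with Pdgfrb at 98.7 and 115.1 CPM.

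The 250 bases that precede the annotated starts of 4 of the 5 marker genes are shown because these genes define the cells. The sequences are from RefSeq on GRCm38.p6, read on the strand of the gene, and no window was matched to Higd1b in the set used. Capitals mark the sequence ACGTG, the core that hypoxia-inducible factors bind, on either strand.
Rgs5 (chr1:169655251-169655500, + strand): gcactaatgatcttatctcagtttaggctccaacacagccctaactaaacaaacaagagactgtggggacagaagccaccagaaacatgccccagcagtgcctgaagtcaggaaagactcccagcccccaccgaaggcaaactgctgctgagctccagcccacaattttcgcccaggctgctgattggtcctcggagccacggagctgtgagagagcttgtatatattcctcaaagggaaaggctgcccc
Notch3 (chr17:32166891-32167140, - strand): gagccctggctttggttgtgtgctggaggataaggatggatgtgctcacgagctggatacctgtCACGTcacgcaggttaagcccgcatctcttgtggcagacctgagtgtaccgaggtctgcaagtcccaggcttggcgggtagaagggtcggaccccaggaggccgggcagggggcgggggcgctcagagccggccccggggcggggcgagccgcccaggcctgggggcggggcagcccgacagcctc
Kcnj8 (chr6:142571615-142571864, - strand): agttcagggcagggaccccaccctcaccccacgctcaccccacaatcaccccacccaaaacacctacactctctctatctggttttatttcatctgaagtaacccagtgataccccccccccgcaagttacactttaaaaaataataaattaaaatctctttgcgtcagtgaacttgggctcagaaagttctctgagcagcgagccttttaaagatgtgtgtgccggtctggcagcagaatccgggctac
Abcc9 (chr6:142702275-142702524, - strand): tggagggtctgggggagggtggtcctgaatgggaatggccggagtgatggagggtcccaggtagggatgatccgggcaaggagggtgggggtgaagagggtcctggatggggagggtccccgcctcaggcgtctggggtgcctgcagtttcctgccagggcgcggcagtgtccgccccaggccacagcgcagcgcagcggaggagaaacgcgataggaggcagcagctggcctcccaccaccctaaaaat
ACGTG was present once, on the reverse strand of the Notch3 window between 186 and 182 bases before the start, and in 16.6% of 27025 windows of the same length. GTGGGAA, a sequence bound by the Notch effector RBPJ, and the CArG box bound by serum response factor were searched in the same way on both strands. They were in none of the 11 windows found for the 20 marker and leading genes of pericytes, and in 5.41% and 1.40% of all windows.

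**Figure D1:**
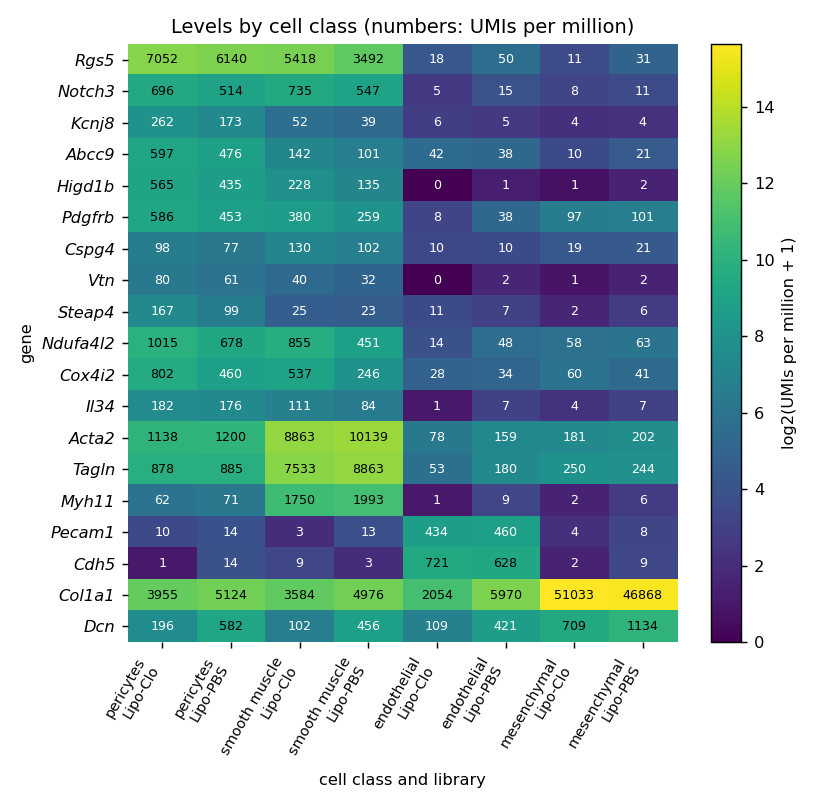
Level of 19 genes (rows) in the 4 gated cell classes of each library (columns), as CPM over the class. Colour follows the log2 of the level plus 1. The 5 chosen transcripts were at 50.2 CPM or less in endothelial and mesenchymal cells, from which cells with 4 or more of these UMIs were kept out by the gates, while smooth muscle cells shared Rgs5 and Notch3 but held less Kcnj8 and Abcc9.

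Smooth muscle cells are the other mural cells. Smooth muscle cells, taken by 2 or more UMIs of Myh11 (117 in Lipo-Clo and 230 in Lipo-PBS), carried Acta2, smooth muscle actin, at 8863 and 10139 CPM, against 1138 and 1200 in pericytes. Tagln, another contractile gene, was at 7533 and 8863 CPM in smooth muscle and at 878 and 885 in pericytes. Kcnj8, which the rule used to choose pericytes, was at 52.5 and 38.9 CPM in smooth muscle. Steap4, a metalloreductase gene, was at 167.5 and 98.6 CPM in pericytes and at 24.7 and 23.0 in smooth muscle. Rgs5 and Notch3 did not separate the classes as far, with Notch3 at 734.7 and 547.2 CPM in smooth muscle. Pdgfrb, the receptor through which pericytes are recruited, was at 585.5 and 453.0 CPM in pericytes, 379.7 and 259.2 in smooth muscle, and 8.48 and 37.6 in endothelium.

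The 15 genes that led the pericytes over all other filtered cells, among genes seen in at least 30% of pericytes and apart from the chosen ones, were led by Il34 and Itga1. They included both subunits of soluble guanylate cyclase, Gucy1a1 and Gucy1b1, which receive nitric oxide, and the phosphodiesterases Pde3a and Pde5a, which break cyclic nucleotides down. Other leading genes were Itga1, an integrin subunit for basement membrane collagen, Gjc1, a gap junction gene, the adhesion genes Mcam and Thy1, the matrix gene Tinagl1, the septin gene Septin4, the unnamed gene Gm13889, the hypoxia-inducible factor Epas1 and the respiratory chain genes Cox4i2 and Ndufa4l2. Smooth muscle cells held more Pde3a (481.6 and 550.1 CPM, against 229.3 and 348.9 in pericytes), Tinagl1, Gm13889 and Mcam than pericytes in both libraries. They held less Il34, Itga1, Cox4i2, Ndufa4l2, Gjc1, Pde5a, Septin4 and Thy1. Epas1, Gucy1a1 and Gucy1b1 were lower in smooth muscle in Lipo-Clo and higher there in Lipo-PBS. Il34, a ligand of the receptor Csf1r by which macrophages survive, had the largest ratio of the 15, with a log2 ratio of 4.52 over the rest of the cells. Il34 was at 182.1 CPM in Lipo-Clo pericytes and 176.2 in Lipo-PBS, a log2 ratio between the libraries of 0.05 (-0.24 to 0.34). Csf1, the other ligand of that receptor and named here after its values were seen, was at 39.3 and 32.6 CPM (log2 ratio 0.27, -0.40 to 0.93). The intervals of both ligands took in 0.

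Before the libraries are compared, properties of the gated cells need stating. Many carried transcripts of another lineage. With lists for 9 other lineages, from which Col1a2, Col3a1, Prrx1, Pmp22, Cnp and Thy1 were dropped because mural cells may express them (70 genes in all), 158 of 375 Lipo-Clo pericytes (42.1%, 37.1 to 47.3) and 316 of 550 Lipo-PBS pericytes (57.5%, 53.2 to 61.6) had 4 or more UMIs of at least 1 list. These cells had medians of 2895 and 3002.5 UMIs, against 1231 and 1383.5 in the 217 and 234 cells without. Dental mesenchyme was the list most often met, in 106 Lipo-Clo pericytes (28.3%, 23.8 to 33.1) and 265 Lipo-PBS pericytes (48.2%, 43.9 to 52.4). Macrophage transcripts were met in 19 (5.07%) and 50 (9.09%), bone and dentin forming cells in 20 (5.33%) and 50 (9.09%), neutrophils in 28 (7.47%) and 27 (4.91%), ameloblasts in 23 (6.13%) and 33 (6.00%), keratinocytes in 24 and 34, and B cells in 18 (4.80%) and 22 (4.00%). Glial transcripts were met in 1 and 15 pericytes, and T and NK cell transcripts in 2 and 4. Scrublet's highest doublet scores fell on 31 of the 158 (19.6%) and 46 of the 316 (14.6%), and on 6 of the 217 (2.76%) and 3 of the 234 (1.28%). At an equal depth of 1000 UMIs the cells with other-lineage transcripts made up 23.7% (18.8 to 29.1) of 283 Lipo-Clo and 30.1% (25.8 to 34.7) of 429 Lipo-PBS pericytes.

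**Figure D2:**
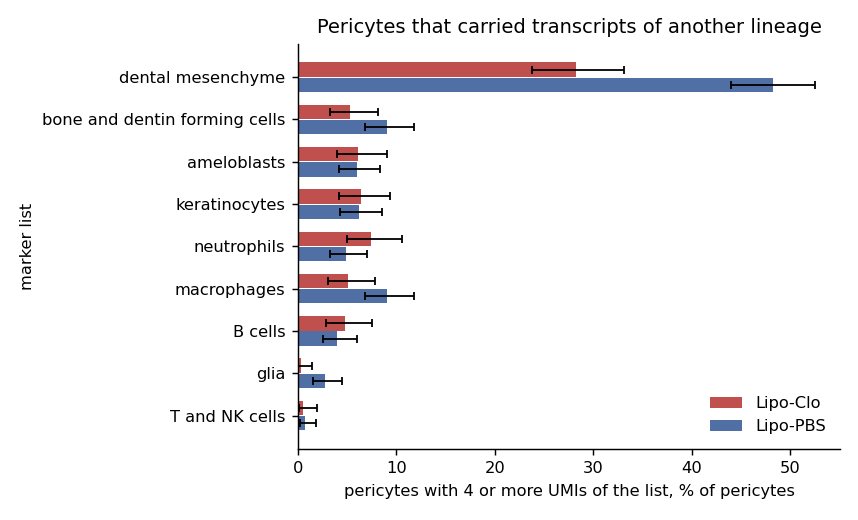
Share of the pericytes of each library (horizontal axis, %) with 4 or more UMIs of each of 9 marker lists of other lineages (rows). Error bars are exact 95% binomial intervals. Dental mesenchyme transcripts were met in 28.3% of Lipo-Clo and 48.2% of Lipo-PBS pericytes.

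Transcripts of other lineages were also seen outside the pericytes, and whether free RNA or doublets carried them was not tested. In haemoglobin-rich cells, in which haemoglobin exceeds 50% of UMIs and which should hold no pericyte, matrix or neutrophil transcript (362 and 352 cells, medians of 3372.5 and 3439.5 UMIs), S100a9 of neutrophils was seen in 49.4% of Lipo-Clo and 15.3% of Lipo-PBS cells, and in 41.3% and 12.7% of pericytes. Odam of ameloblasts was seen in 39.0% and 27.8% of these cells and in 30.1% and 23.6% of pericytes. In pericytes both were seen in no larger a share than in these cells, while 1 Lipo-Clo pericyte held 32.8% of the Odam UMIs of the Lipo-Clo pericytes. Of the UMIs of haemoglobin-rich cells that were not haemoglobin, Dcn took 194.2 and 624.3 CPM, Lum 735.3 and 787.1 CPM, and Col1a2 2848 and 3872 CPM. In pericytes Dcn was at 195.5 and 581.5 CPM, Lum at 390.0 and 508.7, and Col1a2 at 2098 and 2702. By share of cells, Dcn was seen in 8.56% and 19.3% of haemoglobin-rich cells and in 12.53% and 26.73% of pericytes, Lum in 26.5% and 29.3% against 20.5% and 33.5%, and Col1a2 in 48.3% and 63.1% against 76.3% and 81.1%. Mgp, matrix Gla protein, was seen in 5.25% and 16.5% of haemoglobin-rich cells but in 69.1% and 70.2% of pericytes. The make-up of the RNA differed across the whole libraries. Mitochondrial UMIs were 0.412% in Lipo-Clo and 1.90% in Lipo-PBS pericytes, beside 0.368% and 1.74% in all filtered cells. Haemoglobin UMIs were 5.48% and 10.2% of pericyte UMIs, and Malat1, a nuclear RNA, 1.99% and 2.65%. The lists of pericyte biology below, and the genes most affected, are therefore given for all gated pericytes and again for the 217 and 234 without other-lineage transcripts, a choice made after seeing the data.

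The first question was whether clodronate treatment went with a different abundance of pericytes. In Lipo-Clo 4.22% of filtered cells were pericytes (interval 3.81 to 4.66), while Lipo-PBS had 6.18% (interval 5.69 to 6.70). The log2 ratio was -0.55 (-0.74 to -0.36). Pericytes without other-lineage transcripts made up 2.44% (2.13 to 2.78) and 2.63% (2.31 to 2.99), a log2 ratio of -0.11 (-0.38 to 0.17) that counting error covers. Pericytes with such transcripts made up 1.78% and 3.55%, a log2 ratio of -0.999 (-1.28 to -0.72). With every cell thinned to 1000 UMIs, which also leaves out cells of fewer UMIs, all gated pericytes were 283 of 7649 and 429 of 7945 cells (log2 ratio -0.55, -0.77 to -0.33), and the shares were 2.82% and 3.78% for those without other-lineage transcripts (log2 ratio -0.42, -0.68 to -0.16).

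**Figure D3:**
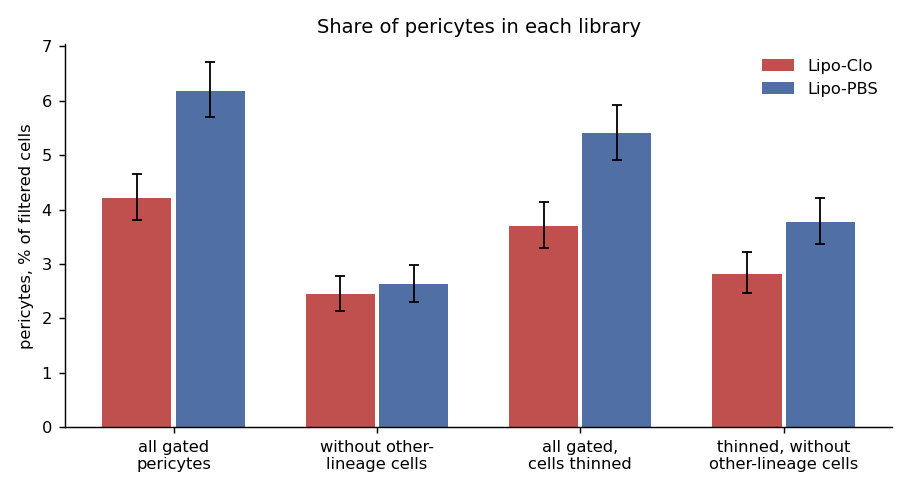
Pericytes as a share of filtered cells (vertical axis, %) in the Lipo-Clo and Lipo-PBS libraries, for all gated pericytes and for those without other-lineage transcripts, at full depth and with cells thinned to 1000 UMIs. Error bars are exact 95% binomial intervals. The full-depth shares were 4.22% and 6.18% for all gated pericytes and 2.44% and 2.63% without other-lineage transcripts.

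Pericytes were also set against the vessels. Endothelial cells numbered 413 and 510, so that the libraries held 0.908 and 1.08 pericytes per endothelial cell, a log2 ratio of -0.25 (-0.52 to 0.02). The interval reached 0 there, but lay below 0 with no limit on Col1a1 (-0.42, -0.68 to -0.16), with 3 or more marker UMIs (-0.32, -0.58 to -0.05) and with no limit on Myh11 (-0.29, -0.55 to -0.03). Lifting the Col1a1 or Myh11 limit widened the pericytes only, to 423 and 699 or to 458 and 691 cells. Endothelial cells stayed at 413 and 510 under both. With other-lineage cells left out of both classes the values were 0.756 (217 over 287) and 0.745 (234 over 314), a log2 ratio of 0.02 (-0.34 to 0.38). Smooth muscle cells were 1.32% of the filtered Lipo-Clo cells and 2.59% of the Lipo-PBS cells (log2 ratio -0.97, -1.31 to -0.65). A share of cells in a digested tissue also moves with how well each cell type was released, and that was not tested.

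Pericytes varied among themselves. The 451 pericytes without other-lineage transcripts, clustered over both libraries, fell into 6 subgroups, which are described by their leading genes and left unnamed. The largest, of 179 cells, had the highest Rgs5 (13144 CPM), Kcnj8 (536.4) and Mgp (4424), with Tsc22d3 and Timp1 among its leading genes. A subgroup of 65 cells was led by inflammatory and immediate-early genes, among them Il6, the adhesion receptor Icam1, the chemokine Cxcl1 and the stress factor Atf3. Il6 was seen in 43.1% of its cells and 4.40% of the others, and stood at 723.9 CPM there against 28.5 to 70.5 in the other subgroups. A subgroup of 57 cells, led by Pcdh9, Omd, Wif1 and Ptn, held the highest Acta2 (2430 CPM) and Col1a2 (1708), and the lowest Ccl2 among the 5 subgroups in which Ccl2 was seen (19.0). A subgroup of 22 cells, led by H2-M9, Fabp7, Smad6, Mt3 and Dach1, held the lowest Acta2 (106.1 CPM) and no Ccl2. A subgroup of 28 cells had Ahsp of erythroid precursors and Ube2c of dividing cells among its leading genes, had a median of 3726.5 UMIs, and held the lowest Rgs5 (4613 CPM). The erythroid list was not among the 9 lists, so these 28 cells, 11 of Lipo-Clo and 17 of Lipo-PBS, stayed among the 451. The remaining 100 cells were led by P3h2, Nr3c2 and Trabd2b. Every subgroup held cells of both libraries, and the largest held 106 of the 217 Lipo-Clo and 73 of the 234 Lipo-PBS cells, which stands beside the ratios of Kcnj8 and Mgp given below.

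The second question was which pericyte genes differed between the libraries. Of 6533 genes with at least 50 UMIs in the pericytes of both libraries together, 465 (7.12%) were 1.5-fold or more higher in Lipo-Clo and 524 (8.02%) were 1.5-fold or more lower, with a median log2 ratio of 0.03. In the cells without other-lineage transcripts 2484 genes had as many UMIs, of which 194 (7.81%) were higher and 172 (6.92%) lower, with a median of 0.06. In all other filtered cells the median of the 6533 genes was -0.12. When totals left out mitochondrial, haemoglobin and ribosomal protein genes, 340 genes were higher and 676 lower, so that the higher genes were 33.5% of those past 1.5-fold in place of 47.0%. The counts were made by size alone, and each list below is read beside them.

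**Figure D4:**
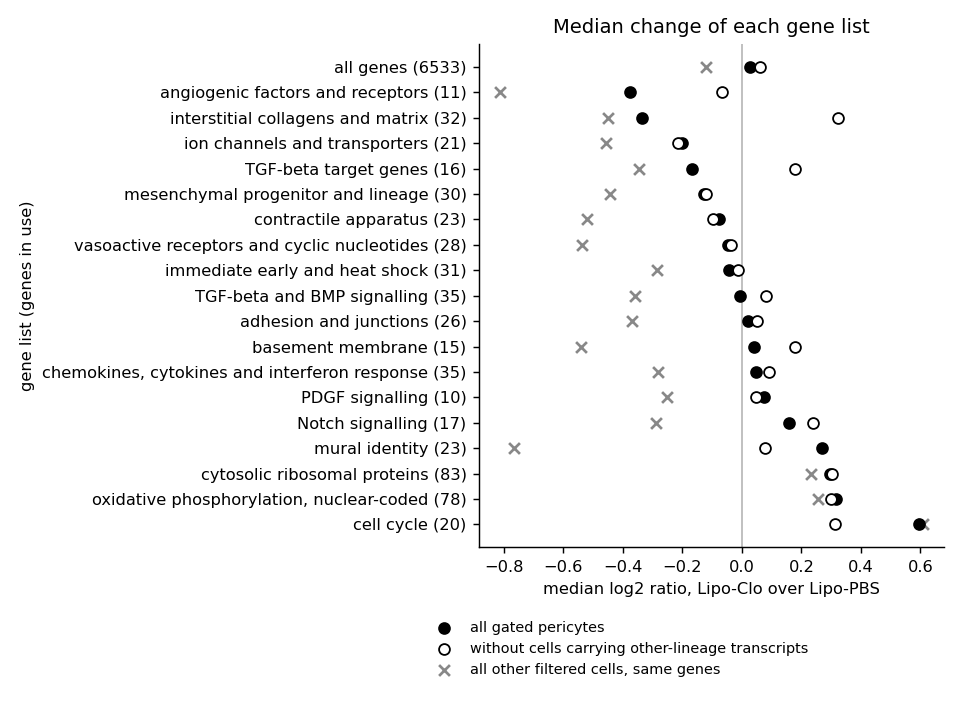
Median log2 ratio of Lipo-Clo over Lipo-PBS (horizontal axis) for all genes and for 18 gene lists (rows, with the number of genes in use). Filled points are all gated pericytes, open points those without other-lineage transcripts, and crosses the same genes in all other filtered cells. Cell cycle (0.60), oxidative phosphorylation (0.32), angiogenic factors (-0.37) and matrix (-0.34) lay farthest from 0 in all gated pericytes, and matrix stood at 0.32 without other-lineage cells.

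Of 26 mural identity genes 23 were in use, of which 3 were 1.5-fold or more higher in Lipo-Clo and 0 lower, with a median log2 ratio of 0.27, and of 0.08 without other-lineage cells. Cox4i2, a subunit of cytochrome c oxidase whose product replaces the common form in vessels and lung, was at 802.4 CPM in Lipo-Clo and 459.8 in Lipo-PBS (log2 ratio 0.80, 0.65 to 0.96), and its ratio without other-lineage cells was 0.57 (0.34 to 0.80). In the rest of the cells Cox4i2 had the same ratio of 0.57. Steap4 had a log2 ratio of 0.76 (0.42 to 1.10) and of 0.73 (0.24 to 1.23) without other-lineage cells, beside -0.77 in the rest. Ndufa4l2, a hypoxia-responsive relative of a complex I and IV subunit, was at 1015 and 678.1 CPM, a log2 ratio of 0.58 (0.45 to 0.71) and 0.40 (0.21 to 0.59) without other-lineage cells. Epas1, the hypoxia-inducible factor of vessels, had a log2 ratio of 0.41 (0.22 to 0.60), and of 0.37 (0.10 to 0.65) without other-lineage cells. Of the transcripts that chose the cells, Kcnj8 had a log2 ratio of 0.60 (0.34 to 0.86), Notch3 0.44, Higd1b 0.38, Abcc9 0.33 and Rgs5 0.20, as a description. The transcription factor Tbx2 had a log2 ratio of 0.61 (0.23 to 1.00), and 0.31 (-0.23 to 0.85) without other-lineage cells. Ebf1, the most abundant factor of the list, was close between the libraries, at 1605 and 1741 CPM (log2 ratio -0.12, -0.21 to -0.02). Cspg4, the NG2 proteoglycan, was at 97.8 and 76.9 CPM (log2 ratio 0.35, -0.07 to 0.76). Atp13a5 had no UMI in the gated pericytes of either library.

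The contractile apparatus of mural cells came next. Of its 28 genes 23 were in use, 1 was higher and 0 lower, with a median log2 ratio of -0.08. Without other-lineage cells 20 were in use, 0 were higher and 1 lower, with a median of -0.10. Acta2 was at 1138 and 1200 CPM (log2 ratio -0.08, -0.19 to 0.04), and Myl9, the regulatory light chain, at 585.5 and 559.1 (log2 ratio 0.07, -0.09 to 0.23). Tpm1 had a log2 ratio of -0.34 (-0.47 to -0.21), and of -0.38 (-0.60 to -0.16) without other-lineage cells. In all gated pericytes the gene past 1.5-fold was Ppp1r14a, an inhibitor of myosin phosphatase, at 77.5 and 43.5 CPM (log2 ratio 0.83, 0.32 to 1.35), from 69 and 64 UMIs.

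Vessel tone is set by receptors, cyclic nucleotides and ion channels. Among 28 of 53 vasoactive receptor and cyclic nucleotide genes in use, 1 was higher and 3 lower, with a median log2 ratio of -0.05 and of -0.04 without other-lineage cells. Pde3a, which breaks down cyclic AMP, was at 229.3 CPM in Lipo-Clo and 348.9 in Lipo-PBS (log2 ratio -0.61, -0.85 to -0.37), and its ratio without other-lineage cells was -0.53 (-0.84 to -0.22). Rgs7bp, a membrane anchor of RGS proteins, was at 28.1 and 59.2 CPM (log2 ratio -1.07, -1.78 to -0.42). Prkaca, the catalytic subunit of protein kinase A, was the member that was higher, at 57.3 and 25.2 CPM (log2 ratio 1.19, 0.55 to 1.84), from 51 and 37 UMIs. Of the soluble guanylate cyclase subunits, Gucy1a1 had a log2 ratio of -0.20 (-0.40 to 0.01), and of -0.32 (-0.62 to -0.02) without other-lineage cells. Gucy1b1 was near level, with 0.13 (-0.15 to 0.42) and -0.01 (-0.41 to 0.38). So was the endothelin receptor Ednra, at 196.7 and 191.1 CPM. Prkg1 of the same list had -0.40 (-0.53 to -0.26), and -0.43 (-0.62 to -0.25) without other-lineage cells. Of 33 ion channel and transporter genes 21 were in use, 0 were higher and 1 lower, with a median log2 ratio of -0.20. Without other-lineage cells 14 were in use and 5 were lower (Atp2b4, Cacnb2, Slc38a11, Cacna1c and Atp1b2), with a median of -0.22. In all gated pericytes the gene past 1.5-fold was Slc38a11, an amino acid transporter much used as a pericyte marker, with a log2 ratio of -0.67 (-1.34 to -0.03). Slc38a11 was not particular to pericytes here, at 32.6 and 51.7 CPM against 71.0 and 100.8 in smooth muscle. Cacna1c, the pore of the L-type calcium channel, was at 227.0 and 327.1 CPM (log2 ratio -0.53, -0.77 to -0.29), and -0.63 (-0.97 to -0.29) without other-lineage cells. Pde5a, which breaks down cyclic GMP, had a log2 ratio of -0.01 (-0.29 to 0.27). Pde3a and Cacna1c were lower in the rest of the cells too, with log2 ratios of -1.12 and -0.58.

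The signalling lists cover recruitment, maturation and guidance of pericytes. PDGF signalling had 10 of 12 genes in use, 0 higher and 1 lower, with a median log2 ratio of 0.07, and of 0.05 without other-lineage cells. The gene that was lower was Pdgfra, a receptor of fibroblasts, at 41.6 and 97.3 CPM, and it had 3 and 4 UMIs in the cells without other-lineage transcripts. Pdgfra is among the genes by which those cells were chosen, so these UMIs are in part set by that choice. Pdgfrb had a log2 ratio of 0.37 (0.20 to 0.54). Notch signalling had 17 of 27 genes in use, 1 higher and 0 lower, with a median of 0.16 and of 0.24 without other-lineage cells. The ligand Jag1 was at 169.7 and 135.3 CPM (log2 ratio 0.33, 0.01 to 0.64), and the target genes Hes1 and Heyl had log2 ratios of 0.13 (-0.09 to 0.35) and 0.09 (-0.35 to 0.52). TGF-beta and BMP signalling had 35 of 46 genes in use, 1 higher and 0 lower, with a median of -0.01, and of 0.08 without other-lineage cells. Its most abundant member Id3, an inhibitor of bHLH factors, was at 1896 and 1571 CPM (log2 ratio 0.27, 0.18 to 0.36). TGF-beta target genes had 16 of 18 in use, 0 higher and 1 lower, with a median of -0.17, and of 0.18 without other-lineage cells. Angiogenic factors and receptors had 11 of 29 genes in use, 0 higher and 4 lower, with a median of -0.37, and in the cells without other-lineage transcripts 8 were in use, 0 were past 1.5-fold and the median was -0.07. The 4 were the guidance genes Slit2, Slit3 and Sema3c and the receptor gene Nrp2, with log2 ratios from -1.28 for Sema3c to -0.62 for Slit3, and Slit3 had a ratio of 0.49 (-0.21 to 1.21) without other-lineage cells.

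The basement membrane and the interstitial matrix are laid down around the vessel. The basement membrane list had 15 of 23 genes in use, 0 higher and 1 lower, with a median log2 ratio of 0.04. Without other-lineage cells 2 of 12 were higher, 0 lower, with a median of 0.18, and Col18a1 had a ratio of 0.66 (0.27 to 1.05). Col4a1, the main collagen that pericytes and endothelium lay down together, was at 1935 CPM in Lipo-Clo and 1860 in Lipo-PBS (log2 ratio 0.06, -0.03 to 0.14). All 32 interstitial collagen and matrix genes were in use, of which 1 was higher and 10 lower in Lipo-Clo, with a median log2 ratio of -0.34. Dcn, the proteoglycan decorin of fibroblasts, was at 195.5 and 581.5 CPM (log2 ratio -1.57, -1.82 to -1.34), beside the levels in haemoglobin-rich cells given above, and Eln, elastin, at 283.2 and 596.5 (log2 ratio -1.07, -1.28 to -0.87). Col3a1, the most abundant member, was at 5077 and 5839 CPM (log2 ratio -0.20, -0.25 to -0.15). Without other-lineage cells 3 of 20 genes were higher and 0 lower, with a median of 0.32. Dcn, Lum and Postn of this list are among the genes by which those cells were left out, so the loss of lower genes is in part set by that choice and is given as a description. Dcn then had 11 and 15 UMIs and a log2 ratio of -0.11 (-1.38 to 1.11), Eln a ratio of 0.35 (-0.10 to 0.80) and Col3a1 a ratio of 0.35 (0.25 to 0.45). The dental mesenchyme markers, of which Col1a2, Col3a1, Dcn, Lum and Postn are also in the matrix list, had 10 of 10 in use, with 0 higher, 3 lower and a median of -0.37, a summed level of 9415 and 11726 CPM in all gated pericytes, and of 7704 and 6235 without other-lineage cells. Mgp, with a log2 ratio of 2.61 for pericytes over the rest of the cells, was higher in Lipo-Clo in both sets, at 2417 and 2041 CPM (log2 ratio 0.24, 0.16 to 0.32), and with a ratio of 0.64 (0.51 to 0.77) without other-lineage cells.

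Adhesion and junction genes, 26 of 32 in use, had 0 higher and 2 lower and a median log2 ratio of 0.02, and of 0.05 without other-lineage cells. Itgb1, the beta subunit shared by most matrix-binding integrins, was at 752 and 1162 CPM (log2 ratio -0.63, -0.76 to -0.50), with a ratio of -0.56 (-0.77 to -0.35) without other-lineage cells and of -0.84 in the rest. Of the mesenchymal progenitor and lineage genes 30 of 40 were in use, 2 were higher and 4 lower, with a median of -0.13 and of -0.12 without other-lineage cells. Lepr, a marker of perivascular stromal cells, had 18 and 66 UMIs (log2 ratio -1.15, -1.99 to -0.38), and 10 and 19 in the cells without other-lineage transcripts.

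Pericytes also carry genes of immune signalling. Of 48 chemokine, cytokine and interferon response genes 35 were in use, 5 were higher and 3 lower, with a median log2 ratio of 0.05 and of 0.09 without other-lineage cells. Ccl2, the chemokine that draws monocytes, was at 338.3 CPM in Lipo-Clo and 579.5 in Lipo-PBS (log2 ratio -0.78, -0.97 to -0.59). Without other-lineage cells it had 73 and 213 UMIs and a log2 ratio of -1.21 (-1.62 to -0.82), and in the rest of the cells -0.95. It was seen in 14.7% and 20.4% of pericytes, against 1.66% and 3.98% of haemoglobin-rich cells, where it took 18.1 and 444.6 CPM of the UMIs that were not haemoglobin. The antigen presentation genes B2m and H2-K1 had log2 ratios of 0.59 (0.39 to 0.78) and 0.62 (0.24 to 1.01), and of 0.81 (0.45 to 1.17) and 1.24 (0.47 to 2.03) without other-lineage cells. Cxcl14, a chemokine of fibroblasts and epithelium, had 49 and 38 UMIs, of which 1 Lipo-Clo cell held 34.7%, and 1 and 2 UMIs without other-lineage cells. Ccl7 had 8 and 121 UMIs, of which 1 Lipo-PBS cell held 22.3%, and 6 and 9 UMIs without other-lineage cells. Bst2, an interferon-induced restriction factor, had 0.70 (0.32 to 1.08), and the interferon-induced Ifitm3, the most abundant member, was at 2151 and 1568 CPM (log2 ratio 0.46, 0.37 to 0.54). Of the immediate-early and heat shock genes all 31 were in use, 0 were higher and 1 lower, with a median of -0.04, and of -0.01 without other-lineage cells. The gene that was lower was Atf3, at 196.7 and 327.1 CPM (log2 ratio -0.73, -0.99 to -0.48).

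Nuclear genes of oxidative phosphorylation leaned one way, as they did in the rest of the cells. Of 79 genes 78 were in use, 8 were higher and 0 lower, and 77 had a ratio above 0, as had 3457 of all 6533 genes. Their median log2 ratio was 0.32, 0.30 without other-lineage cells and 0.26 in the rest. Sdhb, an iron-sulfur subunit of complex II, was at 214.7 and 114.3 CPM (log2 ratio 0.91, 0.60 to 1.22). The cytosolic ribosomal proteins behaved alike, with 83 of 86 in use, 1 higher, 0 lower and a median of 0.30, also 0.30 without other-lineage cells, beside 0.23 in the rest. Of 25 cell cycle genes 20 were in use, 11 were higher and 1 lower, with a median of 0.60, beside 0.61 in the rest, and in the cells without other-lineage transcripts 1 of 9 was higher and 1 lower, with a median of 0.31. In all gated pericytes the gene that was lower was Cdkn1c, a brake on division, at 88.8 and 189.1 CPM (log2 ratio -1.09, -1.47 to -0.73), of which 1 Lipo-PBS cell held 29.1%. Without other-lineage cells Cdkn1c had 21 and 108 UMIs and a log2 ratio of -2.03 (-2.78 to -1.35). Over both libraries, 96 of these UMIs lay in the subgroup of 57 cells, where 19.3% of cells carried the gene. How far a single cell sets that ratio was not tested.

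**Figure D5:**
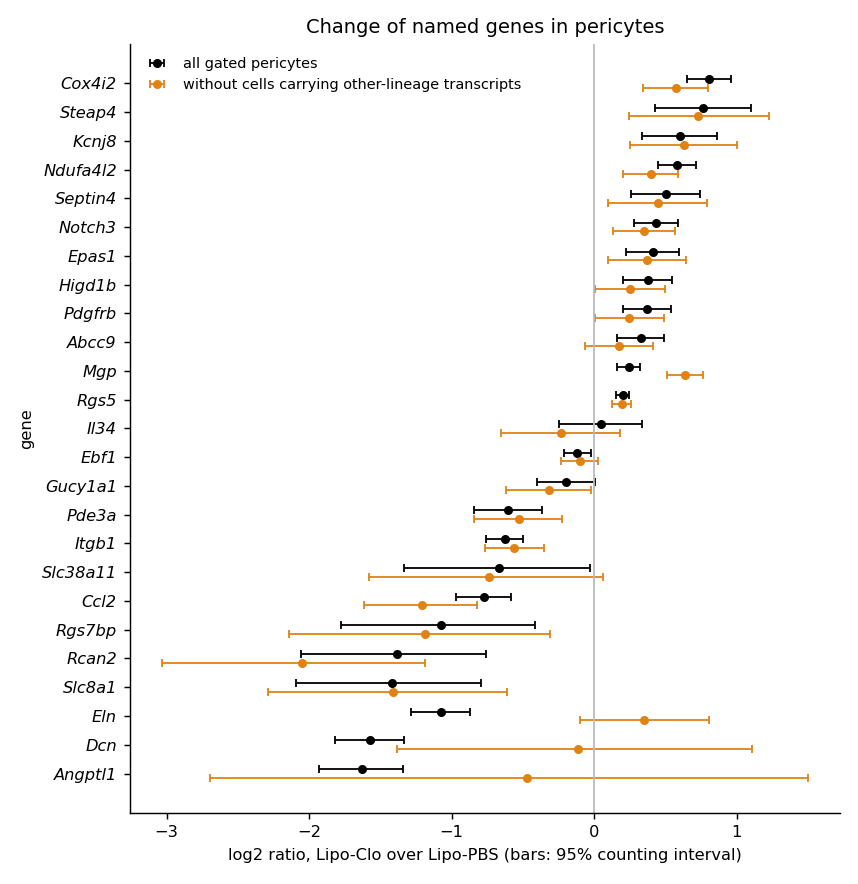
Log2 ratio of Lipo-Clo over Lipo-PBS (horizontal axis) for 25 genes (rows), in all gated pericytes (black) and in those without other-lineage transcripts (orange), with exact 95% counting intervals. Cox4i2, Steap4 and Ndufa4l2 lay above 0 and Pde3a, Itgb1 and Ccl2 below 0 in both sets, while the intervals of Eln, Dcn and Angptl1 reached 0 once other-lineage cells were left out. Rgs5, Notch3, Kcnj8, Abcc9 and Higd1b chose the cells and are shown as a description.

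Among single genes with at least 100 UMIs, the 12 with the largest ratios towards Lipo-Clo were Csk, Upf1, Chn1, Polr1f, Hmox2, Ebpl, Cmc2, Ppp1r35, Sdhb, Rit1, Furin and Ncstn, with log2 ratios from 0.88 to 1.12. Csk, a kinase that restrains Src family kinases, was at 102.3 and 46.9 CPM (log2 ratio 1.12, 0.66 to 1.60), with 1.09 (0.22 to 1.99) without other-lineage cells. The 12 with the largest ratios towards Lipo-PBS were Col14a1, Angptl1, Thbs4, Naaladl2, Dcn, Mfap4, Man1a, Slc8a1, Rcan2, Dpt, Fndc1 and Itih5, with log2 ratios from -1.87 to -1.32. Col14a1, Dcn, Mfap4 and Dpt of these belong to the matrix or dental mesenchyme lists, and Angptl1 kept 4 and 7 of its 115 and 589 UMIs once other-lineage cells were left out. The interval also stayed below 0 without other-lineage cells for Slc8a1, the sodium-calcium exchanger, at 29.2 and 78.2 CPM (log2 ratio -1.42, -2.09 to -0.80, and -1.41, -2.29 to -0.61 without other-lineage cells), Rcan2, an inhibitor of calcineurin (log2 ratio -1.38, -2.06 to -0.76, and -2.05, -3.03 to -1.18), and Man1a, a mannosidase of the Golgi (-1.45, -2.04 to -0.91, and -1.42, -2.54 to -0.42). Naaladl2 had -1.58 (-2.23 to -0.97), and -1.25 (-2.73 to 0.04) without other-lineage cells. In the rest of the cells Slc8a1, Rcan2 and Man1a had log2 ratios of -1.23, -0.60 and -1.12. Smooth muscle was not among the lineages left out. It held Slc8a1 at 145.1 and 263.5 CPM and Rcan2 at 324.1 and 352.8, where pericytes held Rcan2 at 29.2 and 76.2. Man1a was at 21.6 and 72.0 CPM in smooth muscle.

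Markers of other cells differed between the pericytes of the libraries as well. Among the Lipo-Clo pericytes 1 cell held 44.3% of the Ibsp, 31.8% of the Krt14 and 48.7% of the Cd74 UMIs, each gene taken by itself. Without other-lineage cells, which these markers chose, the summed levels were 251.2 and 299.0 CPM for bone and dentin forming cells, 75.3 and 79.7 for keratinocytes, 18.8 and 24.9 for B cells, 119.3 and 69.8 for macrophages, 313.9 and 167.0 for ameloblasts, and 624.7 and 109.6 for neutrophils, of which the last still differed most. Their part in the results above was not tested beyond the values given without other-lineage cells. Ameloblast markers summed to 4650 CPM in Lipo-Clo and 1232 in Lipo-PBS, with 6 of 7 in use, all 6 higher. Their most abundant gene was Odam, and among the Lipo-Clo pericytes 1 cell held 81.6% of the UMIs of Amelx, amelogenin. Neutrophil markers, led by S100a9, summed to 7018 and 2111 CPM, with 8 of 9 in use and all 8 higher. Among the Lipo-Clo pericytes 1 cell held 40.9% of the S100a9, 45.9% of the S100a8, 70.4% of the Camp, 84.6% of the Ngp and 95.8% of the Elane UMIs, each gene taken by itself. The markers were higher in the rest of the cells as well (31074 and 6786). Keratinocyte markers, led by Krt14, summed to 1132 and 560.4 (6 of 8 in use, 4 higher and 0 lower), bone and dentin forming cell markers, led by Ibsp, to 1888 and 920.2 (6 of 10 in use, 2 higher and 1 lower), and B cell markers, led by Cd74, to 451.8 and 332.6 (4 of 7 in use, 1 higher). Macrophage markers, led by Fcer1g, summed to 420.3 and 691.7 CPM, with 6 of 10 in use, 0 higher and 3 lower, while in the rest of the cells they summed to 1596 and 893.8. The members did not move together in the rest. Fcer1g (491.2 and 240.7 CPM) and Lyz2 (427.5 and 187.4) were higher in Lipo-Clo there. C1qa (42.5 and 50.1), C1qb (44.3 and 52.0) and C1qc (49.3 and 65.3) were lower. Glial markers, led by Pmp22, summed to 320.3 and 546.8 (3 of 8 in use, 2 lower), T and NK cell markers, led by Thy1, which pericytes express, to 349.5 and 314.9 (1 of 7 in use), and erythroid markers, led by Hbb-bs, to 54891 and 102065 (6 of 6 in use, all 6 lower). Endothelial markers, led by Esam, summed to 340.5 and 374.1 (5 of 10 in use, 1 lower), and smooth muscle markers, led by Acta2, to 2339 and 2509 (5 of 8 in use, 0 past 1.5-fold).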

How the data were processed

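UMI counts per gene and cell of 2 libraries were used as the authors deposited them, raw and not normalized (Cell Ranger 8.0.0 per the file headers, while the submitters' processing notes name Cell Ranger 3.1.0, Seurat 3.1.1 and GRCm39). Depth was 31053404 UMIs in 9362 Lipo-Clo cells and 30537834 in 9653 Lipo-PBS cells. Pericyte UMIs were summed per library, scaled to CPM, and compared as log2 ratios with exact conditional intervals (scipy 1.17.1). Genes with at least 50 UMIs over both libraries were in use. Symbols that name more than 1 row were left out of single genes.

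Doublets were called but kept in the main values. Scrublet in scanpy 1.11.5 called 0 and 1 cells, so the highest scores, 632 and 633 cells, were used. Subgroups came from Leiden clustering (leidenalg 0.10.2, 1500 variable genes, 15 components, resolution 0.6). edgeR 4.0.16 and DESeq2 1.42.0 gave scaling factors only.

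The members and gene lists were chosen with earlier results of these data known. Named genes are those of the gate and mural list, up to 6 of the most abundant members of each list and members past 1.5-fold with an interval clear of 0, the 12 largest ratios each way among genes with at least 100 UMIs of which no cell holds over 10% (mitochondrial, haemoglobin, immunoglobulin, ribosomal protein, Gm and Rik genes left out), and the 15 leading pericyte genes and the most abundant gene of each other-cell list. Scripts were tested on simulated counts.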

Additional observations from a re-analysis of the deposited data

Results flagged for a closer look

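The log2 ratio of Lipo-Clo over Lipo-PBS in pericytes was 1.5-fold or more one way, and that in all other filtered cells 1.5-fold or more the other way, with neither counting interval reaching 0, for 5 of the genes described with values. Other genes, such as Mgp, Ndufa4l2 and Epas1, also had opposite signs but stayed under 1.5-fold in pericytes or in the rest. In smooth muscle cells Mgp, Ndufa4l2 and Epas1, which were not flagged, were higher in Lipo-Clo, as in pericytes. Mgp was at 719.3 and 591.8 CPM there, Ndufa4l2 at 855.1 and 450.7, and Epas1 at 460.0 and 406.1. Steap4 had 0.76 in pericytes and -0.77 in the rest. Ppp1r14a had 0.83 and -1.04. Cxcl14 had 1.09 and -0.63, and 1 Lipo-Clo cell held 34.7% of its pericyte UMIs in that library. Fcer1g, the most abundant gene of the macrophage list, had -0.71 and 1.03, and without other-lineage cells 11 and 5 UMIs and a ratio of 1.47 (-0.17 to 3.35). Lyz2, lysozyme of macrophages and neutrophils, had -0.99 and 1.19, and without other-lineage cells 6 and 1 UMIs. In smooth muscle cells the flagged genes did not all go with pericytes. Steap4 was at 24.7 and 23.0 CPM there, Ppp1r14a at 422.9 and 447.8, and Cxcl14 at 6.17 and 23.0. Fcer1g was at 250.1 and 171.4 CPM, and Lyz2 at 154.4 and 138.2. Fcer1g and Lyz2 are among the genes by which other-lineage cells were left out, so their values without those cells are a description. With 1 library per condition the difference between pericytes and other cells was not tested.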

How the results depend on the processing

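No paired analysis was possible because Lipo-Clo and Lipo-PBS had 1 library each. Direction and size of the pericyte share held under 10 alternatives, and the log2 ratio was -0.11 without other-lineage cells. Leaving those cells out, by either rule and with thinning, was chosen after seeing the data. The ratio of pericytes to endothelial cells kept within its counting interval under all 11 alternatives, although its own interval lay below 0 under 3 of them. Genes past 1.5-fold numbered 190 higher and 250 lower in Lipo-Clo with cells thinned to 1000 UMIs, 1118 and 1148 at 20 or more UMIs, 162 and 177 among genes in 10% or more of pericytes, 258 and 278 among genes at or above the level of other cells, 194 and 172 without other-lineage cells, 141 and 152 with thinning as well, and 75 and 131 past 2-fold.

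Of the list medians under alternatives 442 stayed within their counting spread, among them medians near 0 that crossed it, 26 moved beyond it and 12 others changed sign. Some of the 12 started from a median whose counting spread took in 0, as for TGF-beta targets and angiogenic factors. TGF-beta targets turned to 0.18 without other-lineage cells and 0.32 with thinning as well, and angiogenic factors to 0.31 with both. Interstitial matrix turned to 0.32 without other-lineage cells, 0.13 with thinning as well and 0.036 among genes at or above the level of other cells. Dental mesenchyme stood at 0.23, at 0.14 with thinning as well and at -0.17 when cells with 1% or more other-lineage UMIs were left out. Under that 1% rule bone and dentin markers stood at -0.77, keratinocytes at -0.22, endothelium at 0.22 and neutrophils at 2.46. With thinning alone bone and dentin stood at -0.21, ameloblasts at 1.62, neutrophils at 3.14 and erythroid cells at -0.68. With the mean over scaled cells bone and dentin stood at 0.049, ameloblasts at 1.10, keratinocytes at 0.62, neutrophils at 1.43 and erythroid cells at -1.08. Without Scrublet doublets keratinocytes stood at 1.78, neutrophils at 2.65 and erythroid cells at -1.09. Without Rgs5 in the gate endothelium stood at 0.18, smooth muscle at -0.61 and neutrophils at 2.29, and with no Myh11 limit smooth muscle at -0.43, neutrophils at 2.00 and erythroid cells at -0.74. A gate of 3 UMIs gave keratinocytes 0.53 and neutrophils 2.21, a gate of 6 UMIs neutrophils 0.85, and no Col1a1 limit neutrophils 1.30. Ameloblasts stood at 5.75 among genes at or above the level of other cells, and erythroid cells at -0.68 without other-lineage cells and -0.60 with thinning as well.

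Of 118 named genes 78 moved beyond their counting interval under at least 1 alternative (229 values). Of those past 1.5-fold with an interval clear of 0, 5 were counted as changing sign (Eln, Slit3, Nfib, Ibsp and Krt14). Other genes past 1.5-fold took the other sign on few UMIs without other-lineage cells and are not in that count. Among them were Mfap4, at 0.20 from 10 and 11 UMIs, and Col15a1, at 0.43 from 16 and 15. Smaller ratios changed sign as well, among them Col3a1, Col1a2 and Postn without other-lineage cells. Eln had 0.070 without Rgs5 in the gate, 0.35 without other-lineage cells and 0.53 with thinning as well. Slit3 had 0.33 with thinning, 0.49 without other-lineage cells and 1.17 with both. Nfib had 0.017 without other-lineage cells. Ibsp had -0.43 with thinning and -0.57 under the 1% rule, and Krt14 -0.22 under that rule. The cause of these moves was not tested. Depth limits genes of low level, and 1 library per condition limits every comparison.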
